A study of Mus musculus with 10 samples.

Results

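The 46 cell cycle genes described here are a list of replication and mitosis genes set by name. The rule uses no measured value, but the list was drawn up with earlier results of these data known. They were 46 of the 55401 gene IDs in the count table, and all 46 were found by symbol, passed the filter on low counts and could be tested in every comparison. The table holds 10 RNA-seq libraries of C57BL/6J mouse Tregs in 5 groups of 2. SP-Tregs were untreated splenic Tregs. Ischemia-Tregs were brain Tregs taken 28 days after the onset of ischemic stroke, in a model in which a cerebral artery is closed for a time. iB-Tregs are in vitro generated brain Treg-like cells, that is, splenic Tregs cultured for 6 days on glial cells from newborn mice. The methods state that most of these glial cells were astrocytes. The study's results call the starting cells splenic, whereas its methods name both spleen and lymph nodes as their source. iB-Tregs (A) received antibodies to CD3 and CD28 (2 μg/mL each) and IL-2 (20 ng/mL). iB-Tregs (B) received IL-33 (20 ng/mL) and serotonin (10 μM) in addition, and iB-Tregs (C) also CCL1 and CCL20 (20 ng/mL each). By the methods the antibodies to CD3 and CD28 were given once, at the first day of co-culture. Cells were selected by hCD2, a human surface protein expressed from the Foxp3 locus of knock-in mice. The labels give neither the age of the mice nor whether animals were pooled. An age range for the mice used is stated in the methods, but not by library.

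The cell cycle runs from a growth phase (G1) through DNA replication (S phase) and a second gap (G2) to mitosis. Cyclin E and the E2F factors open S phase, the MCM helicase is loaded onto origins beforehand (licensing), and cyclins A and B with Cdk1 drive mitosis until the ubiquitin ligase APC/C, with Cdc20, removes them. Resting Tregs in the spleen are mostly in G0 or G1, and Tregs divide when stimulated through the T cell receptor and IL-2. Transcripts of the mitotic genes are held low in resting cells by the DREAM complex, which acts at a promoter element called the CHR, whereas many replication genes carry E2F sites.

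The total count was 5186728 to 6634583 in the SP-Treg and Ischemia-Treg libraries and 15628261 to 16388161 in the iB-Treg libraries, so the values of the former are less precise. In the deposited table the SP-Treg and Ischemia-Treg columns slide out of step with the gene IDs, and 27 of the 46 members had their counts 1 row below their ID in these columns (19 were in place). Between the 4 in vivo libraries and the 6 iB-Treg libraries the mean log2 counts correlated across genes with r = 0.919 in that stretch after the row was moved and 0.094 as deposited. Mitochondrial ribosomal RNA took 16.1 to 17.1% of the counts in vivo and 0.128 to 0.178% in iB-Tregs. Differences between these 2 kinds of library therefore cannot be told apart from differences in library preparation. The 14 T cell and Treg markers were all detected in every group, summing to 5632 to 8922 CPM (counts relative to the TMM-scaled library size). The 12 markers of microglia and macrophages summed to 57.7 to 68.3 CPM in SP-Tregs, with P2ry12 and Trem2 at 0, to 119 to 132 in Ischemia-Tregs, 1956 to 2029 in iB-Tregs (A), 3688 to 3703 in (B) and 2955 to 3150 in (C). The 10 astrocyte markers summed to at most 47.2 CPM in any library, and 5 B cell markers to 46.9 to 55.7 in vivo and 2.75 to 3.53 in iB-Tregs. The part of these other cells in the cell cycle counts was not tested. In such bulk libraries, more dividing cells and more RNA per dividing cell cannot be told apart. The libraries of one group differed by 1.68 to 5.45 times counting noise (chi-square per degree of freedom), so none is a repeat deposit of another. Whether the libraries of a group stem from different mice or cultures is not stated, and the p-values rest on a spread that may be technical. Values of single libraries are given in the order of their numbers, 9 and 10 for SP-Tregs (the spleen), 3 and 4 for Ischemia-Tregs (the brain) and 1 and 2 for the iB-Tregs.

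Most of the 46 genes stood lowest in SP-Tregs and highest in iB-Tregs (A). By group means, SP-Tregs were the lowest group for 44 members and iB-Tregs (A) the highest for 44. In 27 members the order was SP-Treg, Ischemia-Treg, iB-Treg (C), (B) and (A), and in 13 it was the same with (B) below (C). The exceptions to the lowest place were Ttk, lowest in Ischemia-Tregs, and Mcm4, lowest in iB-Tregs (B). The exceptions to the highest place were Mcm4 and Mcm6, both highest in Ischemia-Tregs. Summed over the members, the level was 1237 and 1164 CPM in the spleen, 2161 and 2183 in the brain, 6097 and 6145 in iB-Tregs (A), 4082 and 4080 in (B), and 3992 and 3933 in (C).

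**Figure D1:**
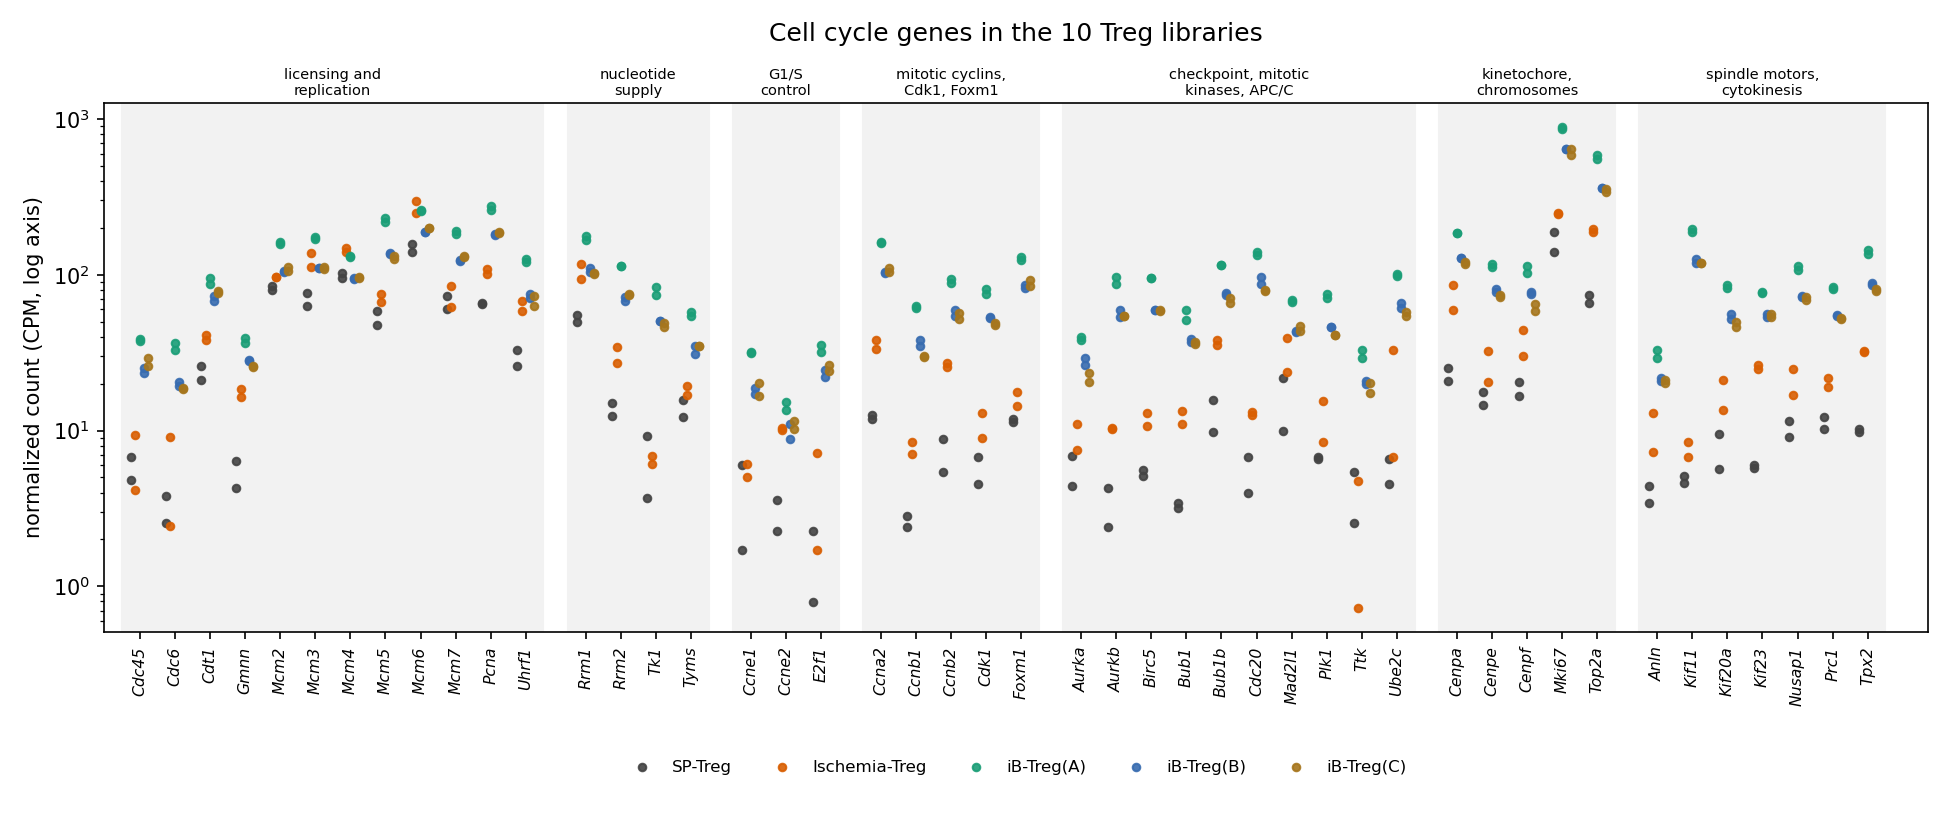
Normalized count (CPM, log axis) of each of the 46 genes, by role, with 1 point per library and 2 libraries per group. Points of iB-Treg (A) lie above those of iB-Treg (B) and (C) for all 46 genes, and SP-Treg points are lowest for most, with Mcm4 and Mcm6 in the licensing block the genes at which Ischemia-Treg is highest.

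Against SP-Tregs, 35 of the 46 genes were higher in Ischemia-Tregs and 0 lower, with a median log2 fold change of 0.98 (edgeR quasi-likelihood test, Benjamini-Hochberg adjusted p under 0.05). Among all 13000 genes tested, 20.4% were higher and 18.3% lower, with a median of 0. At an unadjusted p under 0.05, 39 members were higher and 0 lower, and DESeq2 called 37 higher and 0 lower. The 11 members that did not pass were Ccne1, Cdc6, Cdc45, Aurka, Kif11, Tyms, Tk1, Mcm7, E2f1, Foxm1 and Ttk, with log2 fold changes from -0.76 (Ttk) to 1.55 (E2f1, adjusted p = 0.074, edgeR). Fitted on these 4 libraries alone, where 45 members could be tested, 26 of the 35 kept their call, and with any 1 of the 4 left out 29 to 32 did. In 39 members both Ischemia-Treg libraries lay above both SP-Treg libraries, and in the other 7 the groups overlapped. Of the 8915 genes whose mean level reached that of the lowest member, 33.6% lay wholly above and 31.5% wholly below in this comparison. The calls of Anln, Cdk1, Cenpe, Mad2l1, Mcm2, Mcm5, Plk1 and Ube2c were each lost with at least 1 library left out. The 3 CD8 and NK cell markers with placed counts summed to 21.6 to 27.5 CPM in the spleen and 65.4 to 83.4 in the brain, and 8 of the 12 microglia and macrophage markers were higher in the brain. The part of these cells in the members' counts was not tested.

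Against the same SP-Treg libraries, all 46 genes were higher in iB-Tregs (A), with a median log2 fold change of 2.99 and a range from 0.39 (Mcm4) to 5.32 (Kif11). Of all genes tested 40.0% were higher and 32.7% lower, with a median of 0.14. In iB-Tregs (B) 45 members were higher (39.6% of all genes, with 32.7% lower) and in iB-Tregs (C) 45 (39.3%, with 32.2% lower), with medians of 2.37 and 2.34. Mcm4 was the member that did not pass, at -0.07 ± 0.08 (SE, adjusted p = 0.43, edgeR) in (B) and -0.04 ± 0.08 (adjusted p = 0.63) in (C), and with libraries scaled to 8 T cell genes it was higher in both, at 0.42 (adjusted p = 0.0029) and 0.34 (adjusted p = 0.012), while the median of all genes stood at 0.61 and 0.52. Fitted only on rows that were not moved, it was lower in both, at -0.24 (adjusted p = 0.0095) and -0.22 (adjusted p = 0.017). As fitted on all placed genes, no member was lower in these 3 comparisons by edgeR, by an unadjusted p under 0.05 or by DESeq2. These 3 comparisons and that of Ischemia-Tregs share the SP-Treg libraries.

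**Figure D2:**
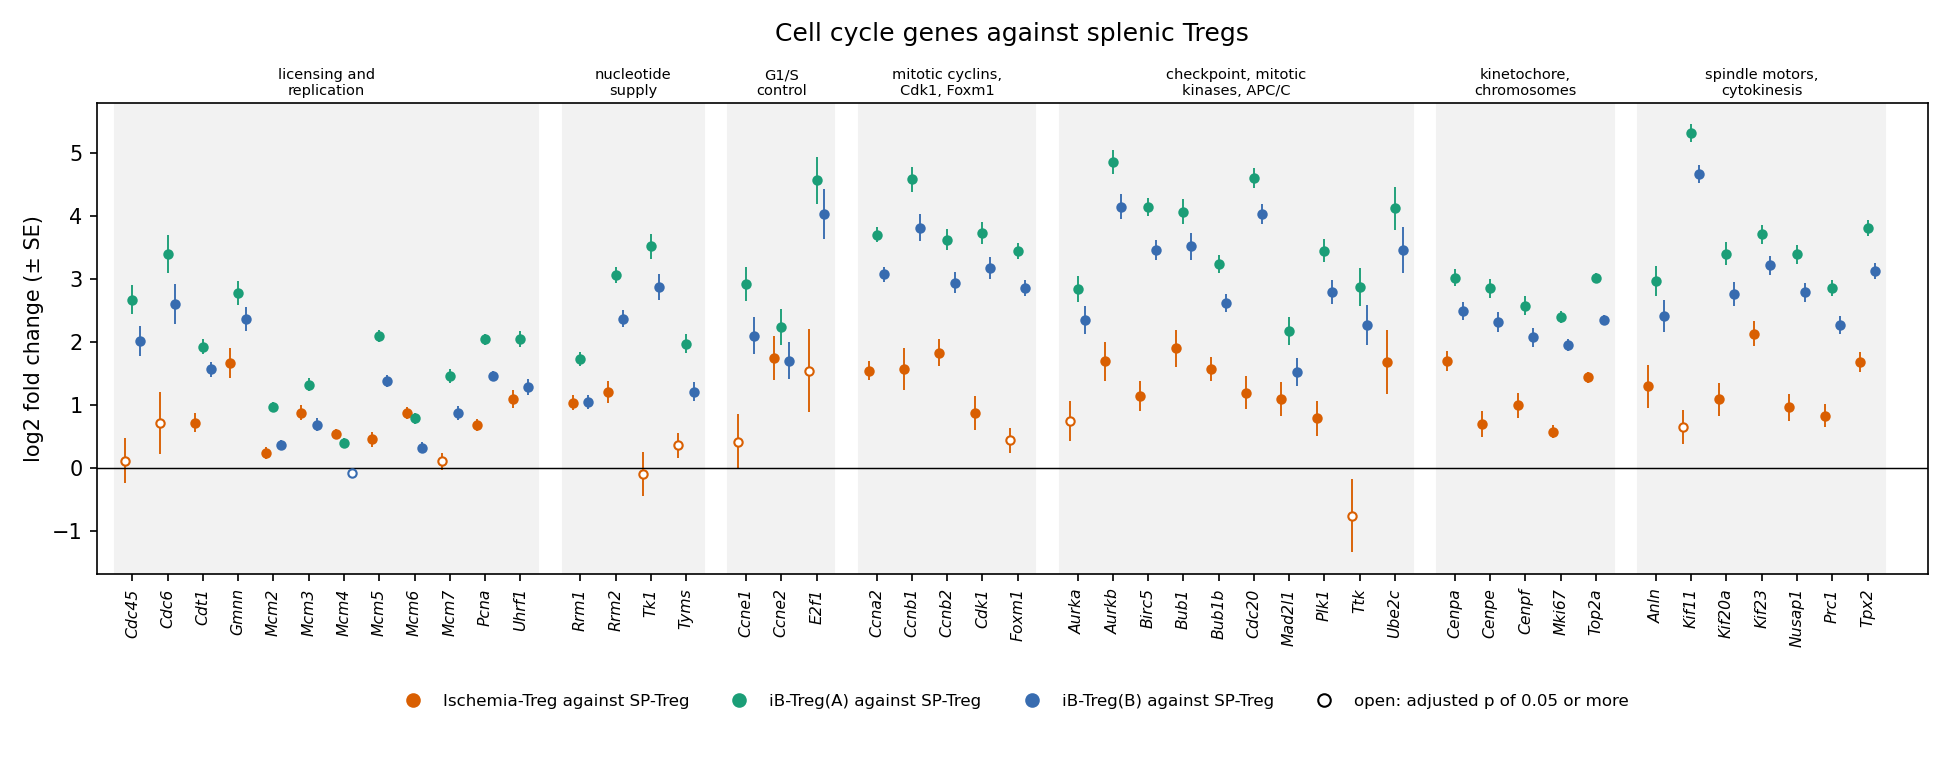
Log2 fold change against SP-Treg (± SE from the edgeR fit) of each gene in Ischemia-Treg, iB-Treg (A) and iB-Treg (B), by role. Filled points passed an adjusted p of 0.05. Members of the mitotic blocks reach 2.13 in Ischemia-Treg and 5.32 in iB-Treg (A). The licensing block has a lower median than these blocks but overlaps them, with Cdc6 at 3.40 and Mki67 at 2.40 in iB-Treg (A).

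The promoters of the members were read for the elements named above, whose letters, like the members, were chosen with results of these data known. The windows, from RefSeq on GRCm38.p6, run from 250 bases before to 50 bases after a start, and 38 of the 46 members matched (41 windows). Letters were searched on both strands, with TTTGAA or TTTAAA for the CHR, CCAAT for the box bound by NF-Y, and TTTCCCGC, TTTCGCGC, TTTGCCGC or TTTGGCGC for E2F. Both CHR and CCAAT letters were in 78.3% of the 23 windows of the mitotic roles, against 10.7% of all 32851 windows and 27.8% of the 18 windows of the replication and G1/S roles. E2F letters were in 38.9% of the windows of the replication and G1/S roles, 4.35% of those of the mitotic roles and 2.26% of all windows. No CHR match shared a base with a CCAAT match in the members' windows. A match is a description of letters and not of binding. TTTAAA is its own reverse complement, and shares count windows, not matches. Shown 5′ to 3′ are the windows of the 2 mitotic members of highest mean CPM that hold both elements, with CHR and CCAAT letters in capitals on either strand, and of the 2 replication members of highest mean CPM that hold E2F letters, with these in capitals, as examples of each set of letters. The Mcm5 window also holds CHR and CCAAT letters and the Mcm6 window CCAAT letters, left in lower case there.
Mki67 (chr7:135716330-135716629, minus strand): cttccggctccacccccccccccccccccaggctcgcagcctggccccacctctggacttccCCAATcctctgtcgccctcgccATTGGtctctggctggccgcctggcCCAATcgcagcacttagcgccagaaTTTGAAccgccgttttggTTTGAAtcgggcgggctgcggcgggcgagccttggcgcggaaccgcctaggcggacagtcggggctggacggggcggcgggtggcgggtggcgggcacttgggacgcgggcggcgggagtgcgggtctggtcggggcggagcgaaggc
Top2a (chr11:99024140-99024439, minus strand): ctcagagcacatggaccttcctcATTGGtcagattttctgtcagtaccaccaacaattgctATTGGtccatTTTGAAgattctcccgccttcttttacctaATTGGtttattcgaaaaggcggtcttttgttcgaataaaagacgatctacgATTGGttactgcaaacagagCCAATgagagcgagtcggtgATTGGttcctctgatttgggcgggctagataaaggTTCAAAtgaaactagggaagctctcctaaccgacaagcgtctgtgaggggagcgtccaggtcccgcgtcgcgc
Mcm6 (chr1:128359656-128359955, minus strand): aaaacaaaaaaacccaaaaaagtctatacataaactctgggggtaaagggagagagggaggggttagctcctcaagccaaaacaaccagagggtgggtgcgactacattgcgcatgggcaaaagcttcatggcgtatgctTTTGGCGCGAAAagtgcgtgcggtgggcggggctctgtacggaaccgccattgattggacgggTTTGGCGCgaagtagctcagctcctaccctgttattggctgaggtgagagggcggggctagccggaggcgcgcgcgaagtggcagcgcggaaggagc
Mcm5 (chr8:75109259-75109558, plus strand): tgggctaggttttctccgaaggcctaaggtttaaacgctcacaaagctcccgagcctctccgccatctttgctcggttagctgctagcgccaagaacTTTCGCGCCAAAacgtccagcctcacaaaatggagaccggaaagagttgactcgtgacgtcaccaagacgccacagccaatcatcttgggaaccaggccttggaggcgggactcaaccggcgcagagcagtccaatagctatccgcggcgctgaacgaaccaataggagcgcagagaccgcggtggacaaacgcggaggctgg
The first run of capitals in Mcm6 and the run in Mcm5 each hold 2 overlapping matches on opposite strands. Mki67 and Top2a rose by 2.40 and 3.01 on the log2 scale in iB-Tregs (A) against SP-Tregs, and Mcm6 and Mcm5 by 0.79 and 2.09. No test of letters against changes was made.

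As a role, licensing and replication had the lowest median change in the co-cultures. Per length, Mcm6, Mcm4, Pcna and Mcm3 led in SP-Tregs at 32.0, 27.7, 27.4 and 18.5 RPKM (group means), ahead of Mki67 at 16.3, whereas Cdc6, of the same role, was at 0.607. The median log2 fold change of the 12 was 0.70 in Ischemia-Tregs, 1.98 in iB-Tregs (A), 1.34 in (B) and 1.24 in (C), each against SP-Tregs, and was the lowest of the 7 roles in the iB-Tregs. Mcm6, a subunit of the MCM helicase, was at 159 and 139 CPM in the spleen, 249 and 299 in the brain, 258 and 259 in iB-Tregs (A), 187 and 188 in (B) and 199 and 199 in (C). Its Ischemia-Treg libraries lay on both sides of those of (A), and above those of (B) and (C). Mcm4, a subunit of the same ring, was at 103 and 95.8 CPM in the spleen, 140.0 and 149 in the brain, 132 and 130.0 in (A), 94.0 and 95.5 in (B) and 96.0 and 97.3 in (C). Its Ischemia-Treg and (A) libraries stood above both from the spleen, by log2 fold changes of 0.54 ± 0.09 (adjusted p = 1.1e-04) and 0.39 ± 0.08 (adjusted p = 2.7e-04). Pcna, the sliding clamp of the replicative polymerases, was at 65.0 and 66.3 CPM in the spleen, 109.5 and 101.8 in the brain, 278 and 261 in (A), 182 and 179.8 in (B) and 188 and 185 in (C). Here every iB-Treg library was above every in vivo library.

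Some of the other licensing genes moved further. Gmnn, the inhibitor of the loading factor Cdt1, had the largest change of its role in Ischemia-Tregs, at 18.6 and 16.5 CPM against 6.38 and 4.27 in SP-Tregs (log2 fold change 1.66 ± 0.24, adjusted p = 4.3e-05, edgeR), and was at 39.0 and 36.7 in (A), 28.1 and 28.4 in (B) and 25.8 and 25.6 in (C). Cdc6, which loads the helicase with Cdt1, had the largest in iB-Tregs (A), at 36.4 and 33.1 CPM against 3.79 and 2.56 in SP-Tregs (3.40 ± 0.30, adjusted p = 2.3e-08), with 19.4 and 20.6 in (B) and 18.6 and 18.7 in (C). The Ischemia-Treg libraries 3 and 4 of Cdc6 disagreed, at 9.12 and 2.43 CPM. Its log2 fold change there was 0.71 with both and 1.47 without library 4. Cdc45, which joins the helicase when it fires, showed the same split, at 9.44 and 4.13 CPM around SP-Treg values of 6.78 and 4.83, and was at 38.6 and 37.6 in (A), 25.1 and 23.4 in (B) and 29.2 and 25.9 in (C). Mcm2, Mcm3, Mcm5, Mcm7, Cdt1 and Uhrf1, which brings the maintenance DNA methyltransferase to replicated DNA, had log2 fold changes of 0.96 to 2.09 in iB-Tregs (A) and of 0.11 to 1.09 in Ischemia-Tregs, where Mcm7 did not pass the test and Mcm2 passed narrowly (0.24 ± 0.09, adjusted p = 0.047, edgeR). The call of Mcm2 was lost without library 9, 3 or 4 (adjusted p of 0.072 to 0.21), and its value was 0.01 with libraries scaled to 8 T cell genes. That of Mcm5 (0.45 in the brain) was lost without library 9 or 4 (adjusted p of 0.11 and 0.056).

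Of the 4 genes of nucleotide supply, both reductase genes passed the test in the brain and both thymidylate genes did not. Rrm1, the large subunit of ribonucleotide reductase, was at 49.7 and 55.2 CPM in the spleen, 93.7 and 118 in the brain, 168 and 178 in (A), 111 and 105 in (B) and 103 and 101 in (C), so that the values in Ischemia-Tregs bracketed those of (B) and (C). Rrm2, the small subunit made in S phase, was at 12.4 and 15.1 CPM in the spleen, 27.05 and 34.5 in the brain, 113 and 114 in (A), 68.4 and 71.8 in (B) and 74.2 and 75.1 in (C). Both passed the test in Ischemia-Tregs, at 1.03 ± 0.12 (adjusted p = 3.5e-06) and 1.20 ± 0.17 (adjusted p = 4.2e-05). Tk1, the cytosolic thymidine kinase, had 9.18 and 3.70 CPM in the spleen and 6.92 and 6.08 in the brain (log2 fold change -0.09 ± 0.35, adjusted p = 0.89), but 83.3 and 74.5 in (A), 50.4 and 50.5 in (B) and 46.2 and 49.1 in (C). Its rise in (A) of 3.52 ± 0.19 (adjusted p = 5.7e-11) was the largest of the role. Tyms, thymidylate synthase, was at 15.8 and 12.2 CPM in the spleen, 17.0 and 19.4 in the brain, 57.4 and 54.6 in (A), 30.9 and 35.1 in (B) and 35.1 and 34.9 in (C), and did not pass in Ischemia-Tregs (0.36 ± 0.20, adjusted p = 0.17).

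Of the 3 genes of G1/S control, 1 passed the test in the brain and all 3 in the co-cultures. E2f1, an activating E2F factor, was at 0.798 and 2.28 CPM in the spleen, 7.23 and 1.70 in Ischemia-Treg libraries 3 and 4, 35.6 and 31.9 in (A), 24.6 and 22.0 in (B) and 26.2 and 24.2 in (C). The iB-Treg libraries were all above the in vivo libraries, and the Ischemia-Treg libraries overlapped the spleen. E2f1 did not pass in the brain with the filter on low counts (1.55 ± 0.66, adjusted p = 0.074, edgeR). It passed without that filter (1.56, adjusted p = 0.014, edgeR) and with DESeq2 (1.59, adjusted p = 0.015). Ccne1 (cyclin E1) was at 5.99 and 1.71 CPM in the spleen, 5.03 and 6.08 in the brain, 32.0 and 31.5 in (A), 17.2 and 18.8 in (B) and 16.6 and 20.3 in (C). Ccne2 (cyclin E2) was at 3.59 and 2.28 CPM in the spleen, 10.1 and 10.5 in the brain, 13.6 and 15.2 in (A), 11.05 and 8.82 in (B) and 11.5 and 10.2 in (C). Ccne2 thus was the cyclin E gene that passed in Ischemia-Tregs (1.75 ± 0.35, adjusted p = 8.3e-04, edgeR), whereas Ccne1 did not (0.42 ± 0.43, adjusted p = 0.48). Without spleen library 9 the value of Ccne1 was 1.71, so that its small change rested on that library. That the 2 genes differ from each other was not tested.

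Of the 7 roles, 3 mitotic ones had the largest median changes in (A), and G1/S control (2.92 in (A) and 1.55 in the brain) stood above kinetochore and chromosomes. Mitotic cyclins, Cdk1 and Foxm1 had a median log2 fold change of 1.55 in Ischemia-Tregs and 3.71 in iB-Tregs (A), the checkpoint, kinase and APC/C genes 1.17 and 3.76, the spindle motor and cytokinesis genes 1.09 and 3.40, and the kinetochore and chromosome genes 0.99 and 2.85. Ccna2 (cyclin A2) was at 12.6 and 11.9 CPM in the spleen, 33.3 and 38.2 in the brain, 160.0 and 162 in (A), 104 and 103 in (B) and 104 and 110.4 in (C). Ccnb1 (cyclin B1) was at 2.39 and 2.84 CPM in the spleen, 8.49 and 7.05 in the brain, 61.1 and 63.0 in (A), 34.9 and 38.2 in (B) and 29.6 and 30.1 in (C). For both cyclins the groups did not overlap, except (B) and (C) for Ccna2. Ccnb2 (cyclin B2) had the largest change of the role in Ischemia-Tregs, at 27.05 and 25.5 CPM against 8.78 and 5.40 (1.83 ± 0.22, adjusted p = 5.1e-06), with 93.5 and 88.6 in (A), 54.4 and 59.0 in (B) and 51.7 and 56.5 in (C). Foxm1, a transcription factor of the G2 and mitosis program, was at 11.4 and 11.9 CPM in the spleen, 17.6 and 14.3 in the brain, 129 and 124 in (A), 82.1 and 86.3 in (B) and 92.5 and 85.3 in (C). It was the member of its role that did not pass in Ischemia-Tregs (0.44 ± 0.20, adjusted p = 0.087), and it rose by 3.44 ± 0.13 in (A) (adjusted p = 3.9e-13). Cdk1, the kinase itself, rose by 3.73 ± 0.17 in (A) (adjusted p = 5.7e-12). In the brain its value was 0.87 ± 0.28 (adjusted p = 0.019), and the call was lost without library 10 (0.66, adjusted p = 0.10) or library 3 (0.62, adjusted p = 0.13), on the 4 libraries alone (adjusted p = 0.16) and with scaling to T cell genes (adjusted p = 0.068).

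Among the checkpoint and mitotic kinase genes, Cdc20, the activator of the APC/C, was at 6.78 and 3.98 CPM in the spleen, 12.6 and 13.1 in the brain, 139 and 134 in (A), 96.6 and 87.3 in (B) and 79.9 and 78.6 in (C). Bub1b, which encodes the checkpoint protein BubR1, was at 9.78 and 15.6 CPM in the spleen, 38.1 and 35.2 in the brain, 115 and 116 in (A), 76.8 and 74.0 in (B) and 65.9 and 70.9 in (C). In both genes the 5 groups were separated in the order of the whole set. Bub1, a checkpoint kinase at the kinetochore, had the largest change in Ischemia-Tregs, at 11.01 and 13.4 CPM against 3.19 and 3.41 (1.90 ± 0.30, adjusted p = 8.7e-05), and was at 51.2 and 59.3 in (A), 37.1 and 38.5 in (B) and 35.7 and 37.2 in (C). Aurkb, the kinase of the chromosomal passenger complex, had the largest in (A), at 96.3 and 87.8 CPM against 2.39 and 4.27 (4.86 ± 0.19, adjusted p = 6.2e-13, a fold of 28.9), with 10.4 and 10.2 in Ischemia-Tregs, 59.2 and 53.8 in (B) and 54.7 and 54.3 in (C). Ttk, which encodes the checkpoint kinase Mps1, was at 5.39 and 2.56 CPM in the spleen, 4.72 and 0.729 in Ischemia-Treg libraries 3 and 4 (the latter from 3 counts), 29.1 and 32.7 in (A), 20.9 and 19.8 in (B) and 20.2 and 17.5 in (C). Ube2c, the ubiquitin-conjugating enzyme of the APC/C, was at 6.58 and 4.55 CPM in SP-Tregs and at 33.0 and 6.81 in Ischemia-Treg libraries 3 and 4, against 98.7 and 101 in (A), 60.9 and 65.6 in (B) and 54.8 and 57.3 in (C). Its call in Ischemia-Tregs (1.69 ± 0.51, adjusted p = 0.015) was lost without library 9 (2.02, adjusted p = 0.055), library 10 (1.48, adjusted p = 0.068) or library 3 (0.25, adjusted p = 0.61). Without library 3, Ttk was lower in the brain at -2.51 (adjusted p = 0.013), and without library 4 its value was 0.16 (adjusted p = 0.86). The remaining 4 genes of this role were Aurka, Birc5 (survivin, of the same complex as Aurkb), Plk1 (a kinase of mitotic entry and the poles) and Mad2l1 (a spindle checkpoint protein), with log2 fold changes of 0.74 to 1.14 in the brain, where Aurka did not pass, and of 2.17 to 4.15 in (A). In the brain the call of Plk1 was lost without library 9, 10 or 3 (0.35, adjusted p = 0.39 without 3), that of Mad2l1 without library 9 or 4 (adjusted p of 0.11 and 0.093) and that of Birc5 on the 4 libraries alone (adjusted p = 0.068), whereas Aurka passed without library 10 or 4 (adjusted p of 0.042 and 0.033) and with DESeq2 (adjusted p = 0.044).

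All 5 kinetochore and chromosome genes were higher in the brain and in every co-culture than in the spleen. Mki67, which encodes the proliferation marker Ki-67, was at 187 and 141 CPM in the spleen, 250.04 and 245 in the brain, 859 and 888 in (A), 643 and 643 in (B) and 639 and 591 in (C). Top2a, the topoisomerase that untangles sister chromatids, was at 74.2 and 66.3 CPM in the spleen, 196 and 188 in the brain, 551 and 588 in (A), 361 and 360.5 in (B) and 355 and 339 in (C). In Ischemia-Tregs Top2a rose by 1.44 ± 0.09 (adjusted p = 1.3e-09) and Mki67 by 0.58 ± 0.10 (adjusted p = 2.6e-04). Cenpa, the histone variant of centromeres, had the largest change of the role, at 59.4 and 85.8 CPM in Ischemia-Tregs against 20.7 and 25.3 in SP-Tregs (1.70 ± 0.16, adjusted p = 4.1e-07), and was at 185 and 185 in (A), 129 and 127 in (B) and 120.4 and 118 in (C). Cenpe, a kinetochore motor, was at 14.6 and 17.6 CPM in the spleen, 32.4 and 20.4 in the brain, 112 and 118 in (A), 81.2 and 77.3 in (B) and 74.4 and 71.7 in (C). Cenpf, a protein of the outer kinetochore, was at 16.6 and 20.5 CPM in the spleen, 44.0 and 29.9 in the brain, 103 and 115 in (A), 78.1 and 75.7 in (B) and 64.6 and 58.2 in (C). In both genes brain library 3 was above brain library 4, and the 5 groups did not overlap. The call of Cenpe in the brain (0.70 ± 0.21, adjusted p = 0.013) was lost without library 9 (0.54, adjusted p = 0.14) or library 3 (0.37, adjusted p = 0.17), on the 4 libraries alone (adjusted p = 0.080) and with scaling to T cell genes (adjusted p = 0.067).

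Kif11, the spindle motor that pushes the poles apart, had the largest change of all members in the co-cultures and one that did not pass in the brain. It was at 4.59 and 5.12 CPM in the spleen and 8.49 and 6.81 in the brain (0.65 ± 0.27, adjusted p = 0.068), against 188 and 197 in (A) (5.32 ± 0.14, adjusted p = 4.6e-15, a fold of 39.9), 119 and 126 in (B) and 119 and 118 in (C). Tpx2, a spindle assembly factor that activates Aurora A, was at 9.78 and 10.2 CPM in the spleen, 31.8 and 32.3 in the brain, 135 and 145 in (A), 88.9 and 85.9 in (B) and 79.0 and 81.0 in (C). Kif23, a motor of the central spindle that serves cytokinesis, had the largest change of all members in Ischemia-Tregs, at 24.8 and 26.5 CPM against 5.79 and 5.97 (2.13 ± 0.20, adjusted p = 2.6e-07, a fold of 4.39), and was at 77.0 and 76.8 in (A), 55.7 and 53.7 in (B) and 53.7 and 56.4 in (C). In (A) Kif23 was higher than in the spleen by 3.71, against 5.32 for Kif11. Kif20a, a motor that also serves cytokinesis, was at 9.58 and 5.69 CPM in the spleen, 21.1 and 13.6 in the brain, 85.4 and 82.8 in (A), 55.6 and 52.1 in (B) and 46.4 and 49.95 in (C). The remaining 3 genes, Nusap1 and Prc1, which bundle microtubules, and Anln (anillin), a scaffold of the contractile ring, rose by 0.83 to 1.30 in the brain and by 2.86 to 3.40 in (A). The call of Anln in the brain was lost without library 3 (0.87, adjusted p = 0.067).

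The balance between the roles also differed between groups. Summed per length, the 12 licensing and replication genes gave 170 and 162 RPKM in SP-Tregs and the 27 mitotic genes 75.1 and 68.1, a ratio of mitotic to licensing of 0.443 and 0.419. The ratio was 0.671 and 0.577 in Ischemia-Treg libraries 3 and 4, 1.56 and 1.63 in iB-Tregs (A), 1.56 and 1.55 in (B), and 1.42 and 1.44 in (C). Since 27 genes are set against 12, a value over 1 also reflects their number, and the ratio of geometric means per gene was 0.200 and 0.219 in the spleen, 0.303 and 0.282 in the brain, 0.655 and 0.695 in (A), 0.667 and 0.666 in (B) and 0.606 and 0.626 in (C). A ratio within a library does not depend on its scaling. Its difference between in vivo and iB-Treg libraries still cannot be told apart from a difference in library preparation. By both ratios all iB-Treg libraries lay above all in vivo libraries, and Ischemia-Tregs lay between SP-Tregs and iB-Tregs. The ratio is a description of these libraries with no test.

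**Figure D3:**
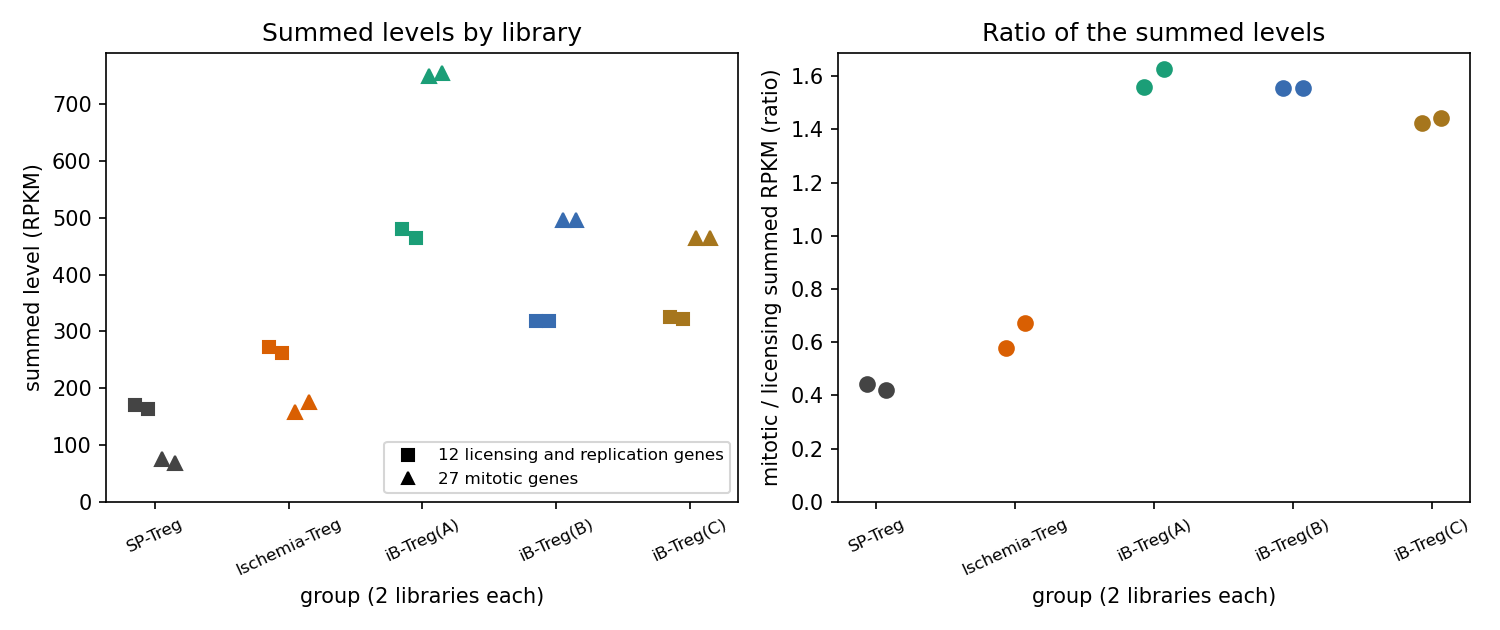
Summed RPKM of the 12 licensing and replication genes (squares) and the 27 mitotic genes (triangles) in each library, left, and their ratio, right, with 1 point per library. The ratio is 0.419 to 0.671 in the SP-Treg and Ischemia-Treg libraries and 1.42 to 1.63 in the 6 iB-Treg libraries.

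Most members were also higher in iB-Tregs (B) than in Ischemia-Tregs. In this comparison 38 members were higher (38.6% of all genes tested) and 2 lower (31.0%), with a median log2 fold change of 1.41 against 0.14 over all genes. The 2 lower members were Mcm4 (-0.61 ± 0.08, adjusted p = 2.5e-06) and Mcm6 (-0.55 ± 0.08, adjusted p = 1.8e-05). Ccne2, Rrm1, Mcm2, Mcm3, Uhrf1 and Mad2l1 did not pass, with log2 fold changes from -0.19 (Mcm3) to 0.42 (Mad2l1). The largest of each role were Kif11 (4.02 ± 0.14, adjusted p = 1.3e-13), Ttk (3.03 ± 0.38, adjusted p = 2.0e-06), Tk1 (2.97 ± 0.22, adjusted p = 2.7e-09), E2f1 (2.49 ± 0.32, adjusted p = 3.3e-06), Foxm1 (2.41 ± 0.13, adjusted p = 4.4e-11), Cdc45 (1.90 ± 0.24, adjusted p = 2.9e-06) and Cenpe (1.62 ± 0.14, adjusted p = 3.3e-08). All of these but Cenpe did not pass in Ischemia-Tregs against SP-Tregs by edgeR with the filter on low counts, whereas E2f1 passed there with DESeq2. These 2 comparisons share the Ischemia-Treg libraries. The 2 lower calls depended on the scaling. With libraries scaled to 8 T cell genes, Mcm4 was at 0.11 (adjusted p = 0.37, edgeR) and Mcm6 at 0.16 (adjusted p = 0.24). The median of all genes then stood at 0.86, and the 6 members that did not pass were all called higher. With no filter on low counts Mad2l1 passed as higher (0.45, adjusted p = 0.0035, edgeR). With protein-coding genes only Mcm3 passed as lower (-0.27, adjusted p = 0.021, edgeR).

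Adding IL-33 and serotonin went with lower counts of every member. In iB-Tregs (B) against (A) all 46 genes were lower (14.5% of the 14713 genes tested were lower and 15.6% higher) and 0 higher by edgeR, by an unadjusted p under 0.05 or by DESeq2. The median log2 fold change was -0.60, against 0.00 over all genes, and the range was narrow, from -0.81 (Ccne1, 1.76-fold lower) to -0.36 (Cdt1, 1.28-fold lower). Per role the medians lay between -0.68 (nucleotide supply) and -0.52 (kinetochore and chromosomes). The largest of each role were Ccne1 (-0.81 ± 0.10, adjusted p = 7.4e-07), Cdc6 (-0.79 ± 0.09, adjusted p = 2.0e-07), Ccnb1 (-0.76 ± 0.07, adjusted p = 1.3e-08), Tyms (-0.76 ± 0.07, adjusted p = 3.8e-08), Aurkb (-0.70 ± 0.06, adjusted p = 1.4e-08), Tpx2 (-0.68 ± 0.05, adjusted p = 1.6e-09) and Top2a (-0.65 ± 0.05, adjusted p = 1.9e-10). For every member both (B) libraries lay below both (A) libraries, as did 39.2% of the 8915 genes at or above the level of the lowest member (29.7% lay wholly above). Of the T cell and Treg markers 7 of 14 were lower in (B) (median -0.13), and of the microglia and macrophage markers 9 of 12 were higher and 1 lower (median 0.97). The part of either in the lower counts of the members was not tested. Scaled to 8 T cell genes, all 46 members were still lower in (B), with a median of -0.49 while the median of all genes stood at 0.11.

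Few members differed once CCL1 and CCL20 were added. In iB-Tregs (C) against (B), 4 members were lower (2.33% of all genes) and 0 higher (1.24%), with a median of -0.06. They were Aurka, a centrosome kinase (-0.34 ± 0.09, adjusted p = 0.037), Cenpf (-0.33 ± 0.07, adjusted p = 0.0065), Ccnb1 (-0.29 ± 0.08, adjusted p = 0.030) and Cdc20 (-0.22 ± 0.06, adjusted p = 0.041). Aurka was at 4.39 and 6.83 CPM in the spleen, 11.01 and 7.53 in the brain, 39.7 and 38.0 in (A), 26.2 and 29.3 in (B) and 20.5 and 23.4 in (C). For all 4 genes both (C) libraries lay below both (B) libraries, as they did for 22 of the 46 members and 22.8% of the 8915 genes (7 members and 26.0% of genes lay wholly above). Of the 12 microglia and macrophage markers 8 were lower in (C) than in (B) and 0 higher (median -0.31). At an unadjusted p under 0.05, 12 members were lower and 1 higher, and DESeq2 called 1 lower and 0 higher. In the fit of all 10 libraries none of the 4 passed, and with any 1 of the (B) or (C) libraries left out at most 1 did, Cenpf without (C) library 1. Scaled to 8 T cell genes, 10 members were lower. The remaining 42 members had log2 fold changes from -0.18 (Ube2c) to 0.18 (Cdc45), with SEs of 0.05 to 0.14. Both (C) libraries lay below both (A) libraries for all 46 members, as did 36.7% of those 8915 genes (32.5% lay wholly above), with a median ratio of group means of 0.629, and this was not tested.

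**Figure D4:**
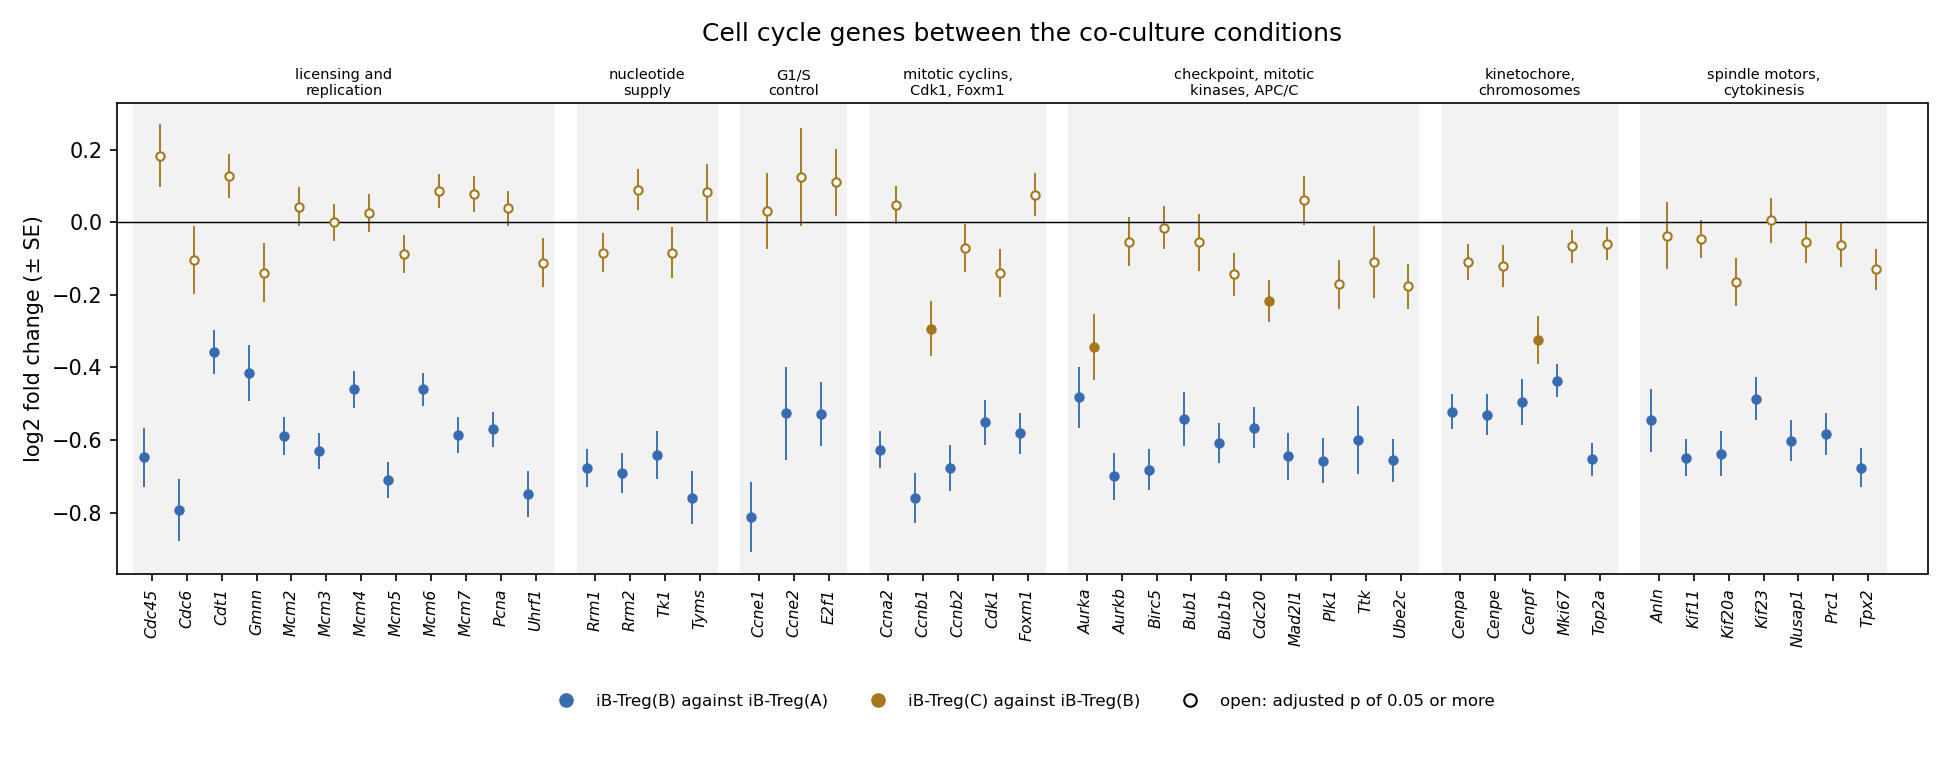
Log2 fold change (± SE from the edgeR fit) of each gene in iB-Treg (B) against (A) and in iB-Treg (C) against (B), by role. Filled points passed an adjusted p of 0.05. All 46 points of the first comparison lie between -0.81 and -0.36, and 42 of the second are open around 0.

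Other genes of the cycle, not among the members, were counted in lists, to be read against the shares of all genes tested given above (20.4% higher and 18.3% lower in the brain, 40.0% and 32.7% in (A), 15.6% and 14.5% in (B) against (A)). The count of origin genes higher in the brain, that of E2F and DREAM genes higher in (A) and those of G1 genes in the brain lay near these shares. Of 29 further mitotic genes tested, 15 were higher and 1 lower in the brain against SP-Tregs, 27 higher and 1 lower in iB-Tregs (A), and 0 of 32 higher and 30 lower in (B) against (A) (edgeR, with the smaller number tested where spleen and brain counts were used). Cdca5 (sororin), which protects sister chromatid cohesion, was at 0.599 and 0.284 CPM in the spleen, 6.60 and 3.65 in the brain and 48.0 and 45.6 in (A). Of 24 origin, GINS and polymerase genes, 6 were higher and 2 lower in the brain, 19 higher and 2 lower in (A), and 20 lower in (B) against (A). Lig1, the ligase of lagging strands, was at 33.1 and 37.5 CPM in the spleen, 113 and 132 in the brain, 263 and 262 in (A) and 183 and 182 in (B). Of 7 damage checkpoint genes, with Trp53, Wee1 and Pkmyt1 among them, 1 was higher and 2 lower in the brain, and 5 higher and 2 lower in (A), the largest being Chek1 (3.30, adjusted p = 2.2e-09, edgeR). Of 16 E2F, pocket protein and DREAM genes, 7 were higher and 1 lower in the brain and 8 higher and 2 lower in (A), led by Mybl2, the MuvB partner that activates mitotic genes (41.4 and 35.6 CPM in (A), 2.19 and 3.98 in SP-Tregs). Rbl2, the pocket protein p130 of the DREAM complex, was at 359.7 and 319 CPM in the spleen, 543 and 543 in the brain and 110.4 and 108 in (B), and was lower in (B) against Ischemia-Tregs (-2.32, adjusted p = 5.4e-14).

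Neither the inhibitors nor the G1 cyclins followed 1 direction in every comparison. Of 7 CDK inhibitors tested, 4 were higher in Ischemia-Tregs and 0 lower, 5 were higher and 2 lower in iB-Tregs (A), and of 8 tested in (B) against (A) 3 were higher and 3 lower. Cdkn1a (p21) was at 0.399 and 1.14 CPM in the spleen, 22.0 and 33.8 in the brain, 184 and 186 in (A), 233 and 241 in (B) and 264 and 261 in (C), so it was lowest in the spleen, as most members were, but it was higher in (B) than in (A) (0.36 ± 0.05, adjusted p = 2.1e-06), where they were lower. Cdkn1b (p27), singled out after its values were seen, was at 243 and 234 CPM in the spleen, 312 and 342 in the brain, 126 and 127 in (A), 137 and 139 in (B) and 154 and 157 in (C), so that it was highest in Ischemia-Tregs. Of 9 G1 cyclins, CDKs and Cdc25 phosphatases, 3 were higher and 2 lower in the brain and 7 higher and 2 lower in (A). In (B) against (A), 0 of these were higher and 7 lower, the direction of the members. Ccnd1 (cyclin D1) was at 0 counts in each of the SP-Treg libraries, at 10.4 and 3.40 CPM in Ischemia-Treg libraries 3 and 4, 68.4 and 75.1 in (A), 62.7 and 62.0 in (B) and 56.4 and 53.7 in (C). Ccnd2 (cyclin D2), also singled out afterwards, had values that were lower in (A) (717 and 785 CPM in SP-Tregs, 418 and 458 in (A)). Of 8 quiescence genes of T cells, 3 were higher and 3 lower in the brain and 2 higher and 5 lower in (A). Klf2, which keeps T cells quiescent, was at 300.1 and 321 CPM in the spleen, 437 and 506 in the brain, 73.5 and 75.4 in (A), 49.2 and 51.6 in (B) and 38.1 and 43.9 in (C).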

How the data were processed

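By the methods, libraries were made from hCD2+ cells with a poly(A) strand-specific kit. No other library kit is named there, although the share of mitochondrial ribosomal RNA differed between in vivo and iB-Treg libraries, as given above. The authors deposited one table of read counts per gene, not normalized, with an exonic length per gene. The study's methods name Trim Galore, HISAT2 and featureCounts on GRCm38, whereas the tools in the submitters' notes are HTSeq 0.6.1 and HISAT2 2.0.1. The strand setting of the counting is not given in the sources used here, so reads of Ccna2, Ccne2, Cdc20, Cdc45, Kif20a, Plk1, Tk1, Mcm7, Nusap1, Ube2c and Prc1, whose exons overlap a gene on the other strand, may include that gene's. Top2a, Mcm7 and Foxm1 overlap a gene on their own strand. The SP-Treg and Ischemia-Treg counts were moved up by 0 to 19 rows in 6 stretches, which placed 24994 of 55401 IDs. The remaining 30407 IDs have no placed spleen and brain counts, and 172 rows without an ID were left out of the library sizes. The placed IDs held 83.0 to 91.9% of the counts in vivo and 94.5 to 94.8% in iB-Tregs. Their SP-Treg and Ischemia-Treg columns carry a number that is in no sample title, so these libraries are called by it and known by group only.

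Tests used edgeR 4.0.16 in R 4.3.3 (filterByExpr, TMM scaling, quasi-likelihood F test, two-sided, Benjamini-Hochberg adjusted p under 0.05). Comparisons with SP-Treg or Ischemia-Treg came from a fit of the 10 libraries (13000 genes tested), and those between iB-Tregs from the 6 iB-Treg libraries over all IDs (14713 tested). The SE is the absolute log2 fold change over the square root of F. CPM use TMM-scaled library sizes, and RPKM divide CPM by exonic length. Alternatives were RLE scaling, scaling to 8 T cell genes, no filter, DESeq2 1.42.0, protein-coding genes only, fewer or more libraries in the fit, only rows not moved, a replicate block and each library left out. The fits were also run on simulated counts. These held no difference in library preparation, so that run cannot show how such a difference affects the calls. The members, roles, lists and motifs were chosen with earlier results of these data known. Values in every library are given for the 2 members of each role with the highest mean CPM and for the member with its largest change in each comparison, with Mcm4 and Ube2c named beside them as exceptions, and genes of other lists are named from the 3 largest called changes. The windows of Aurkb, Kif20a, Tpx2, Foxm1, Gmnn, Ccne2, Ccna2 and Mcm4 were not analysed here.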

Additional observations from a re-analysis of the deposited data

How the results depend on the processing

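Of 3406 results of single members under the alternatives, 3316 kept their direction and their side of the threshold, 57 lost their call, 27 gained one and 6 reversed. The number of members higher or lower stayed within 1.5 times of that reported, except as follows. Without Ischemia-Treg library 3, 1 member (Ttk) was lower against SP-Tregs (range 0 to 1 over the libraries left out). With only rows not moved, 1 member (Mcm4) was lower in iB-Tregs (B) and 1 in iB-Tregs (C) against SP-Tregs (-0.24 and -0.22, 19 members in these rows). With scaling to T cell genes, 0 members were lower in (B) against Ischemia-Tregs and 10 in (C) against (B). The latter count was 1 with DESeq2, 0 with all 10 libraries in the fit, and 0 to 1 with each library left out. The reversed results all came with scaling to T cell genes, which also moved the median of all genes. They were Mcm4 in (B) and (C) against SP-Tregs (0.42 and 0.34) and, in (B) against Ischemia-Tregs, Mcm4 (0.11), Mcm6 (0.16), Mcm3 (0.52) and Ccne2 (0.67). That scaling put the median of all genes at -0.19 for Ischemia-Tregs, 0.51, 0.61 and 0.52 for (A), (B) and (C) against SP-Tregs, and kept 30 of the 35 calls in Ischemia-Tregs. The 46 lower calls in (B) against (A) held under every alternative except that Ccne2 was lost without (B) replicate 2 (-0.37, adjusted p = 0.092). Replicate numbers of the iB-Tregs did not pair the libraries (correlations of deviations -0.014 to 0.015), and with a replicate block the counts stayed at 46 lower in (B) against (A) and 4 in (C) against (B). For genes with few counts in vivo, such as Ttk and E2f1, the SE of the log2 fold change in Ischemia-Tregs was 0.58 and 0.66. Differences of that size could not be told from 0 in this fit. In both genes Ischemia-Treg libraries 3 and 4 also disagreed, at 4.72 and 0.729 CPM for Ttk and 7.23 and 1.70 for E2f1.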
